A study of Mus musculus with 2 samples.

Results

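Neurotransmitter identity genes are the enzymes and vesicle transporters that fix which transmitter a neuron releases. The 9 genes described here, in cultured mouse neural progenitors, are the GABA genes Gad1, Gad2 and Slc32a1, the glutamate genes Slc17a6, Slc17a7 and Slc17a8, and the monoamine or acetylcholine genes Th, Chat and Tph2. They are 9 of 21887 protein-coding genes on the assembled chromosomes, and they were chosen by name for their role. A peak of trimethylated lysine 4 of histone H3 (H3K4me3) was counted for a gene when it overlapped the gene or the 5 kb on either side by at least 1 bp. Of 19265 peaks in the authors' list, 4 met this rule for a member. The groups were 1 H3K4me3 library, labelled con without an explanation of that word, and 1 input library of chromatin from the same kind of cells. The header of the peak list names the H3K4me3 library EGF-K4 and not con, and the list was given to that library as GEO records it. Both came from progenitors of adult animals grown in N2 medium with EGF and bFGF and no further treatment. Strain, sex, brain region and genotype are not given in the labels. The input served as the background of the peak caller, and with 1 library of each kind no value has an error between cultures and no test was made.

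H3K4me3 is laid down around the start sites of genes that are transcribed or held ready for transcription, most of all where the start site lies in DNA rich in CG dinucleotides. Gad1 and Gad2 encode the glutamate decarboxylases that make GABA, and Slc32a1 encodes the transporter that loads GABA and glycine into synaptic vesicles. Slc17a6, Slc17a7 and Slc17a8 encode vesicular glutamate transporters, Th the rate-limiting enzyme of catecholamine synthesis, Chat the enzyme that makes acetylcholine, and Tph2 the tryptophan hydroxylase of serotonin neurons. In the adult rodent forebrain, progenitors of the subventricular zone give rise mainly to GABAergic interneurons of the olfactory bulb, and progenitors of the hippocampus to glutamatergic granule neurons.

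Each transmitter group had 1 member with a called peak, and the marked genes were Gad1, Slc17a7 and Tph2. This is 3 of 9 members (33.3%, exact 95% binomial interval over genes 7.49 to 70.1), against 64.1% of all protein-coding genes under the same rule. Among the 13173 coding genes no shorter than Th (7.22 kb) and no longer than Tph2 (106 kb), the shortest and longest members, 72.9% had a peak. The interval of the members took in the 64.1% and ended below the 72.9%. It covers counting over genes only, and genes are not replicates. The summed tags in counted peaks were 357 at Gad1, 129 at Slc17a7, 44 at Tph2 and 0 at the other members, so the members' median was 0, against 218 over all coding genes. A peak lay over the annotated start site of 2 members, Gad1 and Slc17a7. Of the 17492 coding genes for which promoter windows were at hand, 57.0% had a peak over at least 1 window.

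**Figure D1:**
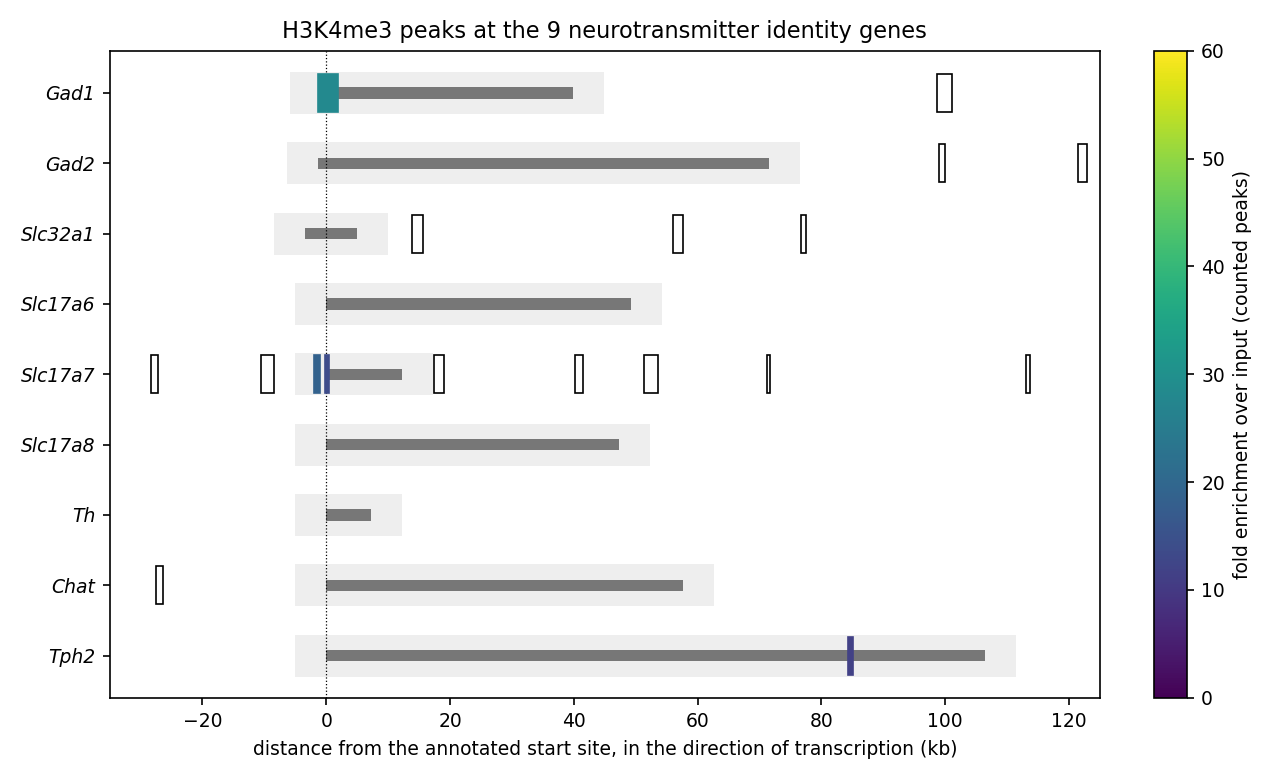
Position of H3K4me3 peaks around the 9 genes, as distance in kb from the annotated start site in the direction of transcription. Dark bars are gene bodies, grey boxes the gene plus 5 kb either side, coloured boxes the counted peaks by fold enrichment and open boxes other peaks. Gad1 and Slc17a7 carried a peak at the start site, Tph2 a peak far inside the gene, and the remaining 6 genes no counted peak.

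The promoter windows of 5 members are printed here, since their letters bear on the contrast between marked and unmarked genes. Each window runs from 250 bases before to 50 bases after the start site, 5′ to 3′ on the strand of the gene, from RefSeq on GRCm38.p6, the assembly that mm10 names. Capitals mark CG dinucleotides. Gad1 and Slc17a7 had a peak over the window, and Gad2, Slc32a1 and Th had none.
Gad1 (chr2:70561879-70562178, plus strand): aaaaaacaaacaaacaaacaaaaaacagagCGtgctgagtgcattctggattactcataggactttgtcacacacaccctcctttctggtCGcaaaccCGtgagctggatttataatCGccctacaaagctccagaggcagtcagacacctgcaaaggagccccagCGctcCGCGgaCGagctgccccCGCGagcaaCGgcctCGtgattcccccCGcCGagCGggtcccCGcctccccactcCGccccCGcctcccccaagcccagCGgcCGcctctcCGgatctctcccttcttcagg
Slc17a7 (chr7:45163671-45163970, plus strand): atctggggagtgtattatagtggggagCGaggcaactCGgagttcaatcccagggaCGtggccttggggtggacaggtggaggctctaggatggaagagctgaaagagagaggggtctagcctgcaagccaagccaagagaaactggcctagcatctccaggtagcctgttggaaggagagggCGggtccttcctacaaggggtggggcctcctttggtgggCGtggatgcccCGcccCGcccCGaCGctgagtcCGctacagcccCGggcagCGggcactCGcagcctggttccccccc
Gad2 (chr2:22622077-22622376, plus strand): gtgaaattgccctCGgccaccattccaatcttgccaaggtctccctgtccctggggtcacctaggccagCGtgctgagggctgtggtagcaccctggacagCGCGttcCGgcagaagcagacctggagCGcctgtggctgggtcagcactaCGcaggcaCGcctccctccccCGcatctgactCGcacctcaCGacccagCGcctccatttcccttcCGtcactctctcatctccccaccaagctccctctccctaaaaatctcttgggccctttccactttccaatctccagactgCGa
Slc32a1 (chr2:158610508-158610807, plus strand): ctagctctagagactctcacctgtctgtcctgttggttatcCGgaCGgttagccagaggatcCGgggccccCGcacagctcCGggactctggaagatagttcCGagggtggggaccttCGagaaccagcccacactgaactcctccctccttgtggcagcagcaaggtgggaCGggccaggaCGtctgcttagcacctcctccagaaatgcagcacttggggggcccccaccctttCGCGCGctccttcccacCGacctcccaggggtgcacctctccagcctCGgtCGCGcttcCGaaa
Th (chr7:142899946-142900245, minus strand): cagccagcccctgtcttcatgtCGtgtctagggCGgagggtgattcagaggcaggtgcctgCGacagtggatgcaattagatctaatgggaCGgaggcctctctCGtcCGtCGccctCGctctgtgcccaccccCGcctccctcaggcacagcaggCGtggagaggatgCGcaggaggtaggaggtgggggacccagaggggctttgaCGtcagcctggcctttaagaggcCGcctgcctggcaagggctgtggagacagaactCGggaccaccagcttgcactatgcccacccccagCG

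The windows of unmarked and marked members overlapped in CG content. The Gad1 window held 21 CG dinucleotides and the Slc17a7 window 13. The unmarked Slc32a1, Th and Gad2 windows held 17, 15 and 14, which places all 3 above Slc17a7 and below Gad1. Chat had 10, Tph2 had 9, and the start sites of Slc17a6 (8 and 3) and Slc17a8 (7 and 6), of which the table gives 2 each, had fewer. The median over 21263 windows of coding genes was 13 with quartiles of 4 and 24. None of the 11 member start sites reached the upper quartile. A peak lay over 2 of the 11, against 55.8% of all coding windows. For Gad1, Gad2 and Slc32a1 the start site used for the window lies inside the annotated gene, not at its first base. Slc32a1 begins at 158607260 with its start site at 158610758. Gad2 begins at 22621015 with its start site at 22622327, and Gad1 at 70561303 with its start site at 70562129. The CG counts of these genes thus describe internal windows, and CG at their first bases was not counted.

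In this library the share of coding windows with a peak rose with their CG count. It was 5.42% with 0 to 4 CG, 29.9% with 5 to 9, 70.2% with 10 to 14, 85.4% with 15 to 19, 91.3% with 20 to 24 and 94.2% with 25 or more. Of the 6 members with at least 10 CG in the window, 2 had a peak over it (33.3%, exact 95% interval 4.33 to 77.7), against 87.8% of 12067 coding windows with at least 10 CG. Of those 12067 windows, 5263 held 25 or more CG, a class with no member window and the highest share, so the 87.8% is not matched to the members' CG counts. The limit of 10 was set after the counts were seen, and Chat lies exactly on it. By class, a peak lay over 1 of 3 member windows with 10 to 14 CG, 0 of 2 with 15 to 19 and 1 of 1 with 20 to 24. Slc32a1, Th, Gad2 and Chat are thus among the 1474 coding windows with at least 10 CG that had no called peak. Of the 5 member start sites with fewer than 10 CG, 0 had a peak, against 13.8% of such coding windows.

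**Figure D2:**
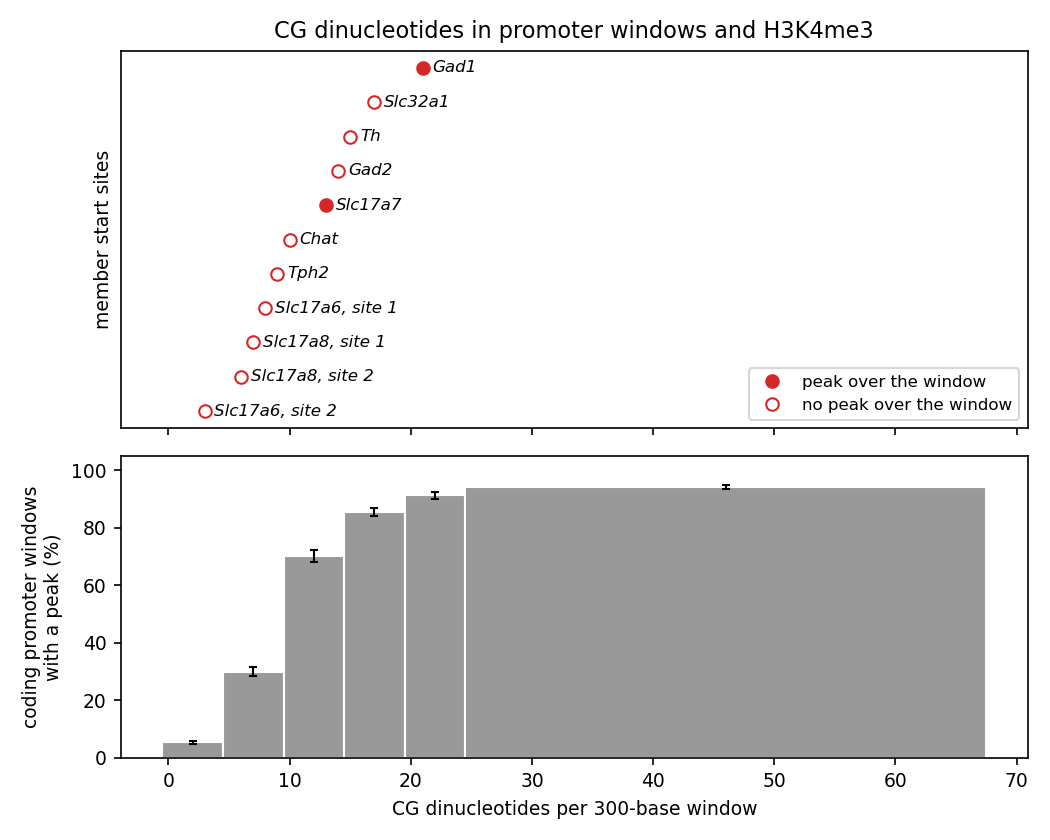
Upper part, number of CG dinucleotides in the 300-base window of each member start site, filled where a peak lay over the window. Lower part, share of coding promoter windows with a peak by CG count, in percent, with exact 95% binomial intervals. The open points of Slc32a1 (17), Th (15) and Gad2 (14) lie in classes where 70.2% or more of coding windows had a peak.

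Each of 4 short motifs searched on both strands was found in 2 of the 11 windows. The letters TATAAA were found at Gad1 and Tph2, against 12.6% of coding windows. CAGCACC was found at Tph2 and the first site of Slc17a8, against 7.24% of coding windows. TAATTA, which reads the same on both strands, was found at the second sites of Slc17a6 and Slc17a8, against 4.53%. CAGCTG, which also reads the same on both strands, was found at Chat and Tph2, against 15.6%. No motif contains another, and a match describes letters only.

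Among the GABA genes, Gad1 had the strongest mark of all members and the other two genes had no counted peak. The Gad1 peak (mm10 chr2:70560870-70563985) was 3116 bp long and held 357 tags (exact Poisson 95% interval 321 to 396, counting error only), with a fold enrichment of 28.2 over the input in the authors' list. It began 1259 bp before the start site and ended 1856 bp after it, with its summit 330 bp downstream. The peak was longer than 83.4% and held more tags than 56.8% of the 9474 peaks over coding promoter windows. Its fold enrichment exceeded that of 23.2% of those peaks, whose median was 38.5 with quartiles of 28.9 and 45.6. The mark at Gad1 was therefore long and of low enrichment for a promoter peak, at 115 tags per kb (103 to 127). The antisense long non-coding RNA gene Gad1os (chr2:70489940-70563357, minus strand) starts under the same peak, so the mark cannot be given to Gad1 or to Gad1os alone. No other peak lay within 51.4 kb upstream or 58.8 kb downstream of Gad1.

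Gad2, which encodes the decarboxylase found mostly at nerve terminals, had no peak over its 72.9 kb (chr2:22621015-22693877) or in the 5 kb around it. The nearest peak, 27.5 kb past its end and at no end of an annotated gene, held 41 tags (fold enrichment 10.1). On the other side, the next peak was 702 kb away. Slc32a1 (chr2:158607260-158615747) likewise had none, although a strong peak of 286 tags and a fold enrichment of 31.0 lay 8.88 kb past its end. That peak lay at an end of Actr5, the gene of an actin-related subunit of a chromatin remodeller, and not at an end of Slc32a1. The 2 decarboxylase genes thus differed in this library, with 357 tags in the peak of Gad1 and no listed peak at Gad2, where the weakest peak of the list held 13 tags.

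Among the glutamate genes, Slc17a7, the vesicular transporter gene of cortical and hippocampal excitatory neurons, was marked by a pair of weak peaks. The peak over the start site (chr7:45163724-45164396) was 673 bp long and held 40 tags (28.6 to 54.5), with a fold enrichment of 13.7 and a summit 120 bp downstream of the start. It had a lower fold enrichment than most peaks over coding promoter windows, exceeding 6.19% of them, and it was longer than 1.28% of them. The second peak lay upstream (chr7:45161911-45162891), from 2010 to 1030 bp before the start site, and held 89 tags (71.5 to 110) with a fold enrichment of 18.6. The upstream peak thus held more tags than the peak at the start site, and their counting intervals did not overlap. Its 90.7 tags per kb (72.9 to 112) and the 59.4 (42.5 to 80.9) of the start site peak overlapped in their intervals. A gap of 832 bp separated the peaks, and together they spanned 2486 bp. At least 2 peaks were counted for 23.1% of coding genes. In a library from many cells, a weak mark in all cells and a stronger one in a few cannot be told apart.

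Slc17a7 lies in a stretch dense with genes and peaks, which bears on its count. The upstream peak was not within 1 kb of an end of any annotated gene and lay between Slc17a7 and Pih1d1, which ends at 45160065. A peak of 341 tags and a fold enrichment of 44.8 lay 8386 bp from Slc17a7, at an end of Aldh16a1. Just outside the 5 kb limit, by 180 bp, was a peak of 92 tags and a fold enrichment of 15.2, at an end of Pth2 and within 1 kb of an end of Kash5. The counted peak farthest from the gene was the upstream one, 1030 bp away, and none lay just inside the limit. With the gene body alone or 1 kb either side, 40 tags were left at Slc17a7, and with 10 kb either side there were 562.

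Slc17a6, the vesicular glutamate transporter gene of thalamic and brainstem neurons, and Slc17a8, which is found in scattered neurons that also use another transmitter, had no counted peak over the gene or around it. Slc17a6 (chr7:51621830-51671126) lay farthest from any peak of all members. The nearest was 190 kb past its end, at Fancf and Gas2, and 1698 kb separated it from the next on the other side. Slc17a8 (chr10:89574020-89621249) had its nearest peak 63.8 kb away, a peak of 346 tags with a fold enrichment of 57.1 at Scyl2.

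Among the monoamine and acetylcholine genes, no start site carried a peak. Tph2 (chr10:115078641-115185022) was counted for a peak inside the gene (chr10:115099864-115100719), 84303 bp downstream of the start site. The next peak upstream of the start site lay 65.0 kb away. That internal peak was 856 bp long and held 44 tags (32.0 to 59.1), with a fold enrichment of 11.7 and a negative log10 p of 14.5 in the authors' list. It lay at no annotated gene end. Its fold enrichment exceeded that of 54.8% of the 4613 peaks that lay over a coding gene and over 1 kb from every coding gene end, whose median was 10.8, so it stood near the middle of that class. For 7.77% of coding genes, Tph2 among them, a peak was counted but none lay within 1 kb of an end of that same gene. That share is broader than the Tph2 case, as it includes genes counted for a peak beside the gene or at an end of another gene.

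Th (chr7:142892779-142899995), expressed in dopamine and noradrenaline neurons, had no peak within 108 kb, and the nearest held 39 tags. Chat (chr14:32408203-32465909) had none within 26.4 kb, and the nearest, upstream of Chat, held 61 tags (fold enrichment 9.55). Slc18a3, the vesicular acetylcholine transporter gene, lies inside Chat (chr14:32462437-32464850), and the stretch without a peak took in both genes. Of the 9 members, 5 (Gad2, Slc17a6, Slc17a8, Th and Chat) had no peak over the gene or within 20 kb, against 29.9% of all coding genes. The 7858 coding genes without a counted peak had a median distance of 101 kb to the nearest peak with quartiles of 31.3 and 349 kb. Slc32a1, Chat and Gad2 lay nearer to a peak than the lower quartile, and Slc17a8, Th and Slc17a6 lay between the quartiles.

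**Figure D3:**
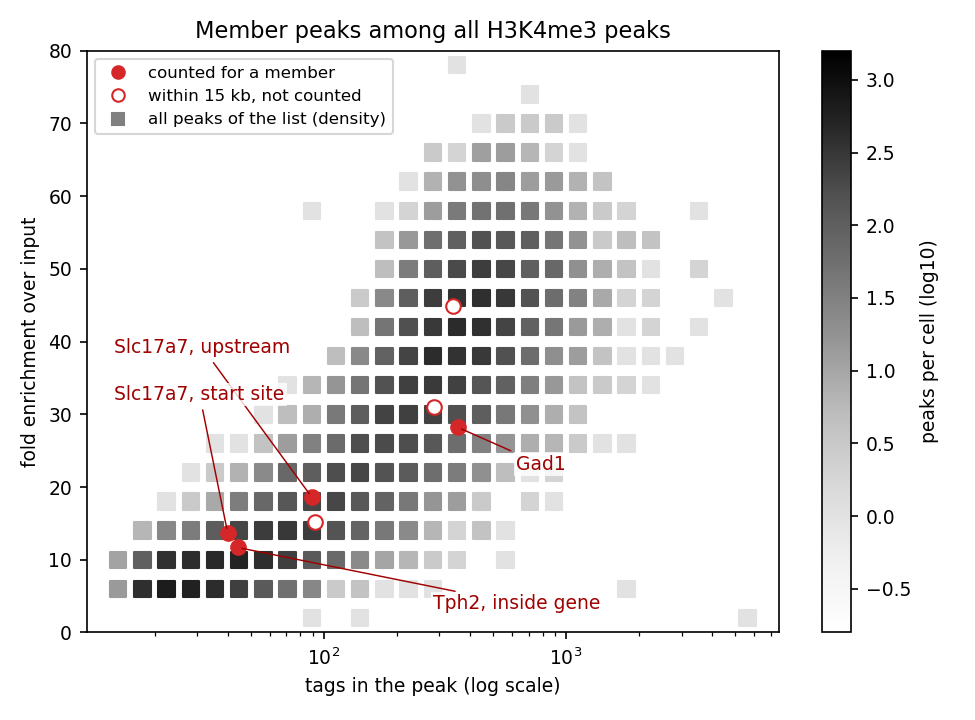
Tags per peak (log scale) against fold enrichment over the input for all 19265 peaks, as grey density, with the 4 counted member peaks filled and the 3 other peaks within 15 kb of a member open. Gad1 (357 tags, 28.2) lies at the low side in fold enrichment among peaks of like tag count, and the peaks of Slc17a7 and Tph2 lie among the weaker ones.

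Genes that make, recycle or take up the same transmitters, and factors that select them, were described by the same rule. For glutamate, all 9 genes of metabolism and uptake had a peak (exact 95% interval 66.4 to 100%), with a median of 634 tags, against 64.1% and a median of 218 over all coding genes. Glul, which encodes glutamine synthetase, had the highest fold enrichment (55.7). Slc38a1 and Slc38a2, which encode glutamine transporters, had 51.4 each. The strongest peaks of Gls2 and Glud1 lay at an end of another coding gene. In the GABA list 4 of 6 genes had a peak (66.7%), with a median of 97 tags. Aldh5a1, which encodes succinic semialdehyde dehydrogenase, had a fold enrichment of 43.9, under a peak that also reached Gpld1. Abat, which encodes GABA transaminase, had 27.5, and the uptake transporter gene Slc6a11 had 16.6. The transporter genes Slc6a13 and Slc6a12 had no peak.

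In the catecholamine list 6 of 11 genes had a peak (54.5%, against 64.1% of all coding genes), with a median of 48 tags, and 3 of the 6 strongest peaks lay at an end of another coding gene. Among them, Slc18a1, a vesicular monoamine transporter gene, had 43.5 under a peak that also reached Atp6v1b2. Ddc had 36.2 at a peak that lay at an end of Fignl1 and not of Ddc. Gch1, which makes the cofactor precursor of Th, had 35.4 at its own end. Dbh and Pnmt, which encode the enzymes that make noradrenaline and adrenaline, had none. The dopamine transporter gene Slc6a3, named after its value was seen, had a weak peak of 48 tags (8.68) over its start site. In the serotonin and histamine list 2 of 4 genes (50%) had a peak. Tph1, the paralogue of Tph2, was counted for a peak beside the gene (29.9) and not at its ends, while the serotonin transporter gene Slc6a4 had 176 tags (20.3) at its own end. Hdc and Hnmt had none.

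In the acetylcholine list 3 of 4 genes had a peak (75%). Ache, which encodes acetylcholinesterase, had a fold enrichment of 33.9 under a peak that also reached Srrt and Ufsp1, and Bche, which encodes a related esterase, had 21.7. The choline transporter gene Slc5a7 had a peak of 38 tags (10.9) inside the gene, and Slc18a3 had none. Both glycine transporter genes were counted, with 45.6 at Slc6a9, mostly a glial transporter, and 9.40 at Slc6a5, the neuronal one, whose peak of 21 tags lay inside the gene. Of 26 transcription factors that select transmitter type, 17 had a peak (65.4%, 44.3 to 82.8), close to the 64.1% of all coding genes, with a median of 67 tags. Nr4a2, a factor of dopamine neurons, had 44.1 under a peak that also reached LOC105244150. Dlx2, a factor of GABA neurons, had 39.1. Pitx3, another factor of dopamine neurons, had its highest value, 37.0, at a peak at an end of Gbf1, and another peak lay over its own promoter window. Dlx5 and Dlx6 had none.

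**Figure D4:**
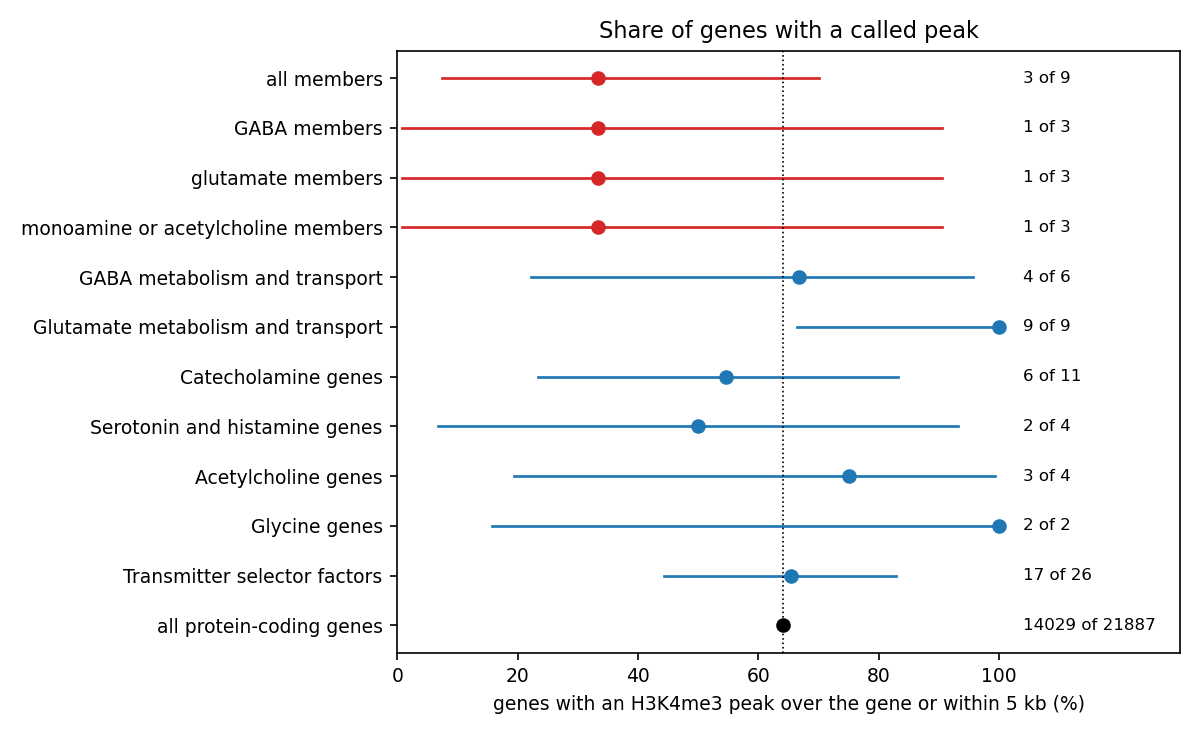
Share of genes with a peak over the gene or within 5 kb, in percent, for the 9 members and their transmitter groups (red), the pathway lists (blue) and all protein-coding genes (black, dotted line). Lines are exact 95% binomial intervals over genes. Most intervals are wide and take in the 64.1% of all coding genes, and the glutamate metabolism list lies above it.

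The labelled cell type was checked on marker genes. All 6 progenitor genes (Sox2, Nes, Hes1, Olig2, Fabp7 and Vim) had a peak, with 762 to 2065 tags each. Of 8 neuronal genes 5 had a peak (62.5%, against 64.1% of all coding genes), with 0 to 1231 tags. Tubb3 (1231 tags in 3 peaks), Map2 (736 in 5) and Syt1 (248 in 2) had a peak over the promoter window. These sums take in peaks elsewhere. Of the Tubb3 tags, 1133 lay in a peak beside the gene and not at its ends. The Map2 peak with the highest fold enrichment held 205 tags. Nefl (145) and Snap25 (84) had a peak at an end of their own gene, and Dcx, Rbfox3 and Stmn2 had none. Of 5 microglia genes 2 had a peak (40%), with 0 to 776 tags. The peak counted for Aif1 lay at an end of Prrc2a, P2ry12 had 82 tags in 2 peaks with a peak over its own promoter window, and Itgam, Cx3cr1 and Csf1r had none. Of 5 endothelial genes 4 had a peak (80%, against 64.1% of all coding genes), with 0 to 462 tags. Flt1 (462 tags, fold enrichment 42.7) and Kdr (93 tags, 13.3) had a peak over the promoter window. Pecam1 (24 tags, 8.68) and Tek (28 tags, 5.75) were counted only for a weak peak inside the gene, and Cdh5 had none. The part of other cell types in the peaks at Gad1, Slc17a7 and Tph2 was not tested. The H3K4me3 library held 18156769 tags after filtering and the input 17831241.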

How the data were processed

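The build is mouse mm10, per the submitters' processing notes, with the aligner not given in the sources used here. The authors called peaks on 1 H3K4me3 library against 1 input library with MACS 1.4.2 at a p cutoff of 1e-05, keeping 1 tag per position, which limits counts in strong peaks, per the file header; the notes name MACS2 2.1.0 instead. The deposited tag counts are not normalized. The deposited score (10 times a negative log10 p), fold enrichment (a ratio over the local input) and false discovery rate (percent) are the authors' values per peak.

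Peaks were joined by position to RefSeq genes of GRCm38.p6 with Python 3.11.15 and pandas 2.3.3; the overlap code was tested on simulated data. All 9 members matched by symbol. Promoter windows were at hand for all 9 and for 17492 coding genes in all, and can miss start sites. Exact 95% binomial (Clopper-Pearson) and Poisson intervals cover counting error only; without molecular identifiers, PCR reads are not independent molecules. The members and lists were chosen with earlier results of these data known, and the CG classes were set after the counts were seen. Named genes were the members, in each list the 4 marked genes with the highest fold enrichment and the first 2 without a peak, and genes with ends at a member's peak; some list genes that the rule names are not reported here. No test was run. Alternatives changed the window, the overlap, the thresholds and the use of neighbours' peaks.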

Additional observations from a re-analysis of the deposited data

How the results depend on the processing

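Gad1 and Slc17a7 had a peak under each of the 10 alternatives, and their start site peaks were counted in all of them; 2 to 4 of the 9 members had a peak. The 10 alternatives gave 140 values, of which 122 stayed close to the reported value: counts of members within 1.5 times of it, tags within its Poisson interval and shares of coding genes within its binomial interval. Many of the 122 could not have moved. Members with 0 tags could gain a peak only with 10 kb either side, as the other alternatives narrow the rule or drop peaks. A peak was counted for 64.1% of coding genes as reported. The share was 60.8% over the gene body alone, 61.5% with 1 kb and 66.5% with 10 kb either side. It was 56.3% within 1 kb of a gene end, 62.7% with a negative log10 p of at least 10, 49.2% without peaks at ends of other coding genes, and 57.0% over promoter windows, an alternative chosen after seeing the data. With 10 kb either side 2 of 3 GABA members had a peak, as the peak at Actr5 gave Slc32a1 286 tags, and Slc17a7 had 562 tags. Slc17a7 had 40 tags over the gene body alone, with 1 kb either side, within 1 kb of an end and over promoter windows, since these leave out its upstream peak. Within 1 kb of an end and over promoter windows, 0 of 3 monoamine or acetylcholine members had a peak, and Tph2 had 0 tags. A false discovery rate of at most 1% removed no peak, since the highest listed was 0.32%. No paired analysis was possible because each group has 1 sample, and no replicate could be left out. Weak peaks below the cutoff are not listed, which limits what the unmarked members show.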
